A study of Homo sapiens with 6 samples.

Results

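The phagocyte NADPH oxidase was followed through 5 genes, CYBB, CYBA, NCF1, NCF4 and RAC2, chosen by name as subunits of the enzyme, out of 60612 gene IDs in each count table. Each of the 5 matched 1 Ensembl ID, and all 5 were among the 15395 genes that passed the filter on low counts and were tested. RNA sequencing was performed on KO52, an acute myeloid leukaemia (AML) cell line labelled as CEBPA double mutant, which is the genotype of all 6 libraries. The cells carried doxycycline-inducible lentiviral pCW57.1 vectors, and according to the study's methods they were treated with doxycycline and sorted for GFP before RNA-seq. In 2 libraries the vector was empty apart from GFP (EV), in 2 it encoded dnCEBP, a dominant negative peptide that pairs with C/EBP family factors and blocks their DNA binding, and in 2 it encoded dnFOS, which does the same to the AP-1 partners of FOS. The comparisons ask how expression of the oxidase genes responded when each factor family was blocked. KO52 is 1 cell line, and whether its replicates were separate cultures is not in the labels, so the p-values measure only the spread between these samples, which may be technical.

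The oxidase is the enzyme with which neutrophils and monocytes make superoxide to kill microbes. Its catalytic core sits in the membrane as a dimer of gp91phox (NOX2, from CYBB) and p22phox (CYBA), and it works once cytosolic subunits, among them p47phox (NCF1) and p40phox (NCF4), and the small GTPase RAC2 have joined it. Loss of a core or cytosolic phox subunit causes chronic granulomatous disease. Some of the genes are switched on as myeloid progenitors mature, and PU.1 (SPI1) is among the factors known to drive several of them.

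Total counts per library were 24479677 and 22056069 with EV, 27663179 and 21681121 with dnCEBP, and 14583615 and 9862994 with dnFOS, so the dnFOS libraries were the shallowest. Levels are given as counts per 1000000 (CPM) on TMM-scaled library sizes, and a floor of 3 counts corresponded to 0.111 to 0.29 CPM. Counting intervals and floors cover counting error only. The labelled cell type was checked against marker lists: CD34 lay between 113.8 and 153.8 CPM in the 6 libraries, CD33 between 54.69 and 64.07 and PTPRC (CD45) between 313.2 and 512.1. Of the same blast markers, KIT was lower, between 13.15 and 16.8 CPM, and FLT3 had only 0 to 4 counts in a library. Markers of mature monocytes and neutrophils were mixed. Several stood well above the floor in EV, among them AIF1 at a mean of 139.5 CPM, CTSS at 88.65, CSF3R at 87.75, LYZ at 77.34, TYROBP at 56.01 and ITGAM at 15.81. Others were at or near 0, with CD14 at 0.275 CPM or less, S100A8 at 0.458 or less, S100A9 at 0.13 or less and FCGR3B with no count in any library. The inducible peptides are not features of the count tables, so their own levels were not analysed here.

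Transcripts of the 5 subunits were present at very different levels. Expressed per kilobase of merged exons, EV levels were 104 ± 3.3 CPM per kb (SD, n = 2) for NCF4, 85.1 ± 4.43 for RAC2, 6.68 ± 0.492 for CYBA, 0.651 ± 0.0858 for CYBB and 0.105 ± 0.0919 for NCF1. The first and second places depended on the length used, since per kilobase of the principal transcript RAC2 stood at 145 ± 7.57 and NCF4 at 131 ± 4.16. With either length, CYBA, CYBB and NCF1 followed in that order in the deposited counts. The EV libraries of neighbouring genes in this lower part did not overlap. The place of NCF1 below CYBB depends on how reads shared with its pseudogenes NCF1B and NCF1C were counted, which is not given. Summed with both pseudogenes, NCF1 stood at 1.13 and 0.412 CPM in EV before division by length, so its order against CYBB is not settled. The catalytic subunit gene CYBB and the p47phox gene NCF1 had at most 75 and 17 counts in a library. Among partners of the enzyme outside the 5 genes, CYBC1, which helps gp91phox to mature, reached 3.68 ± 0.0723 CPM per kb of merged exons in EV, and RAC1, the widely expressed relative of RAC2, 18.9 ± 0.0327.

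**Figure D1:**
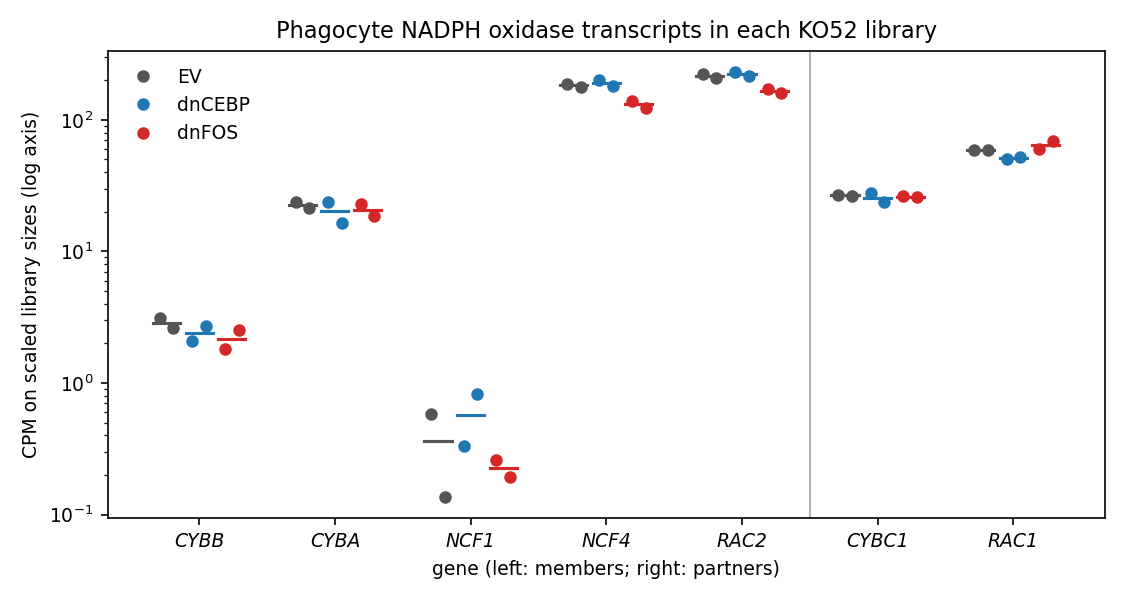
CPM on TMM-scaled library sizes (log axis) of the 5 oxidase genes and of CYBC1 and RAC1 in each library; points are libraries and short lines are group means. Both dnFOS points of NCF4 (138 and 124 CPM) and of RAC2 (170 and 159 CPM) lie below all EV and dnCEBP points, while the dnCEBP points of CYBB overlap both other groups and the groups of CYBA and NCF1 are intermixed.

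All calls among the oxidase genes were in comparisons with dnFOS. With dnCEBP, 0 of the 5 genes passed the edgeR test at an adjusted p under 0.05, against 1.07% of all genes tested. For the same comparison 0 of 5 passed with limma-voom, and 0 of the 4 that DESeq2 gave an adjusted p. With dnFOS, 2 of the 5, NCF4 and RAC2, were lower than in EV, where 7.76% of all tested genes were called lower and 15.0% in either direction. The same 2 genes were lower in dnFOS than in dnCEBP, where 7.84% of all tested genes were called lower and 14.7% in either direction. The median log2 fold change of the 5 genes was 0.05 for dnCEBP versus EV, -0.435 for dnFOS versus EV and -0.44 for dnFOS versus dnCEBP, beside medians over all tested genes of -0.00, 0.00 and 0.02. The comparisons with EV share the EV libraries, and the comparison between the peptides shares libraries with both.

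**Figure D2:**
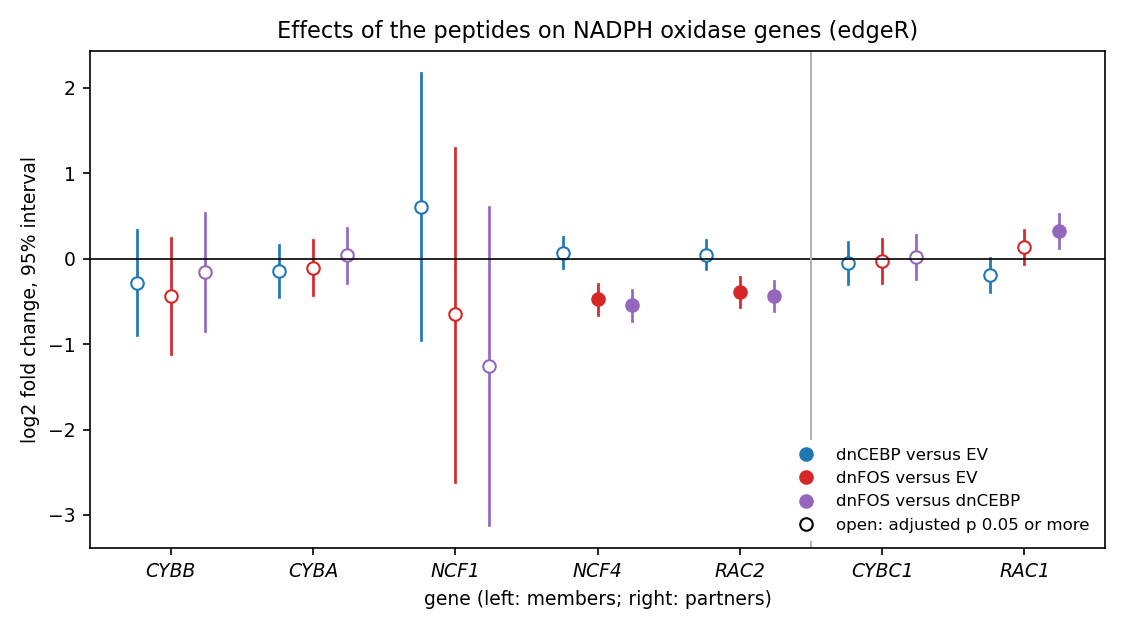
Log2 fold changes from the edgeR fit with 95% confidence intervals for the 5 oxidase genes (left of the grey line) and for CYBC1 and RAC1 (right of it); filled points have an adjusted p under 0.05. NCF4 and RAC2 are filled in both comparisons with dnFOS, RAC1 is filled on the other side of 0 in dnFOS versus dnCEBP, and the intervals of NCF1 reach from -3.12 to 2.17.

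The membrane subunits were not called in any comparison. CYBB (ENSG00000165168, GRCh38 chrX:37780011-37813461, plus strand), the gene for the electron-carrying subunit, was counted 75 and 57 times with EV, 56 and 56 times with dnCEBP, and 28 and 26 times with dnFOS. On scaled library sizes these were 3.15 and 2.61 CPM with EV, 2.07 and 2.70 with dnCEBP, and 1.82 and 2.51 with dnFOS. Both dnFOS libraries lay below both EV libraries, and the dnCEBP libraries overlapped both groups. The log2 fold change of CYBB was -0.28 (SE 0.30, edgeR adjusted p = 0.78) for dnCEBP and -0.435 (SE 0.33, edgeR adjusted p = 0.422) for dnFOS against EV. With so few counts the 95% intervals ran from -0.90 to 0.34 and from -1.11 to 0.24, so a fall of the size seen for NCF4 with dnFOS could not be told from no change. A protein-coding gene model on the same strand, ENSG00000250349, overlaps CYBB and had 0 counts in all 6 libraries.

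CYBA (ENSG00000051523, GRCh38 chr16:88643283-88651152, minus strand), which stabilises gp91phox and docks p47phox, gave 23.6 and 21.2 CPM with EV, 23.9 and 16.5 with dnCEBP, and 23.0 and 18.5 with dnFOS. The highest and the lowest of the 6 values both came from dnCEBP, and the 3 groups overlapped. Against EV the log2 fold change of CYBA came to -0.14 (SE 0.15, 95% interval -0.45 to 0.16, edgeR adjusted p = 0.772) for dnCEBP and -0.10 (SE 0.16, 95% interval -0.42 to 0.22, edgeR adjusted p = 0.722) for dnFOS. The interval for dnFOS does not reach the fitted change of NCF4 in that comparison, -0.475, but it overlaps the interval of NCF4, -0.66 to -0.29. A difference between these genes was not tested. Per kilobase of merged exons CYBA exceeded CYBB by 8.05 to 16.6 times across the 6 libraries, and per kilobase of the principal transcript by 33.1 to 68.4 times, so the transcripts of the partners of the membrane dimer were far from equal in every library. The protein products were not measured.

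Promoter windows from 250 bases before to 50 bases after the start, from RefSeq (GRCh38.p14), were found for 3 of the 5 genes, CYBA, CYBB and NCF1. They were searched on both strands for C/EBP (TTGCNNAA), AP-1 (TGANTCA), RUNX (TGTGGT) and PU.1 (GAGGAA) letters. The PU.1 letters occurred in 2 of the 3 windows, CYBB and NCF1, on the minus strand in both, at positions -48 and -45 from the RefSeq start. The stretches around these matches are shown because the PU.1 letters were the only searched letters found, and the CYBA window had none. The match is in capitals (plus strand, CYBB at chrX:37779984-37780043, NCF1 at chr7:74773939-74773998). Both matches lie within the gene spans of GENCODE release 29, which start upstream of the RefSeq starts.
CYBB: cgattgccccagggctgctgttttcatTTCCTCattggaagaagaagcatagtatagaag
NCF1: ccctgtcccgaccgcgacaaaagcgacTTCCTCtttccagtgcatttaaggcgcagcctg
The PU.1 letters were present in 27.9% of 35116 promoter windows of the same length, the C/EBP letters in 10.5%, the AP-1 letters in 7.71% and the RUNX letters in 13.1%. The last 3 were not in the windows of CYBA, CYBB and NCF1, which says only that these letters are not in these 300 bases. SPI1, which encodes PU.1, stood at 27.02 and 22.8 CPM with EV, 19.0 and 11.6 with dnCEBP, and 19.1 and 15.9 with dnFOS. All 4 peptide libraries were below both EV libraries, but the log2 fold changes of SPI1, -0.69 (SE 0.18, edgeR adjusted p = 0.0671) and -0.50 (SE 0.18, edgeR adjusted p = 0.0733), did not pass. They did under 7 and 5 of the 16 alternatives, with adjusted p values from 9.44e-05 to 0.75 for dnCEBP and from 0.00307 to 0.376 for dnFOS.

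NCF1 (ENSG00000158517, GRCh38 chr7:74773962-74789315, plus strand), the p47phox organiser that carries the phosphorylation switch of the complex, was close to the detection limit. It had 14 and 3 counts with EV, 9 and 17 with dnCEBP, and 4 and 2 with dnFOS. The replicates of EV and of dnCEBP differed as much as the groups did, and the groups overlapped. The fitted change of NCF1 on the log2 scale was 0.61 (SE 0.76, edgeR adjusted p = 0.823) for dnCEBP versus EV, -0.65 (SE 0.96, edgeR adjusted p = 0.711) for dnFOS versus EV and -1.26 (SE 0.91, edgeR adjusted p = 0.406) for dnFOS versus dnCEBP. Without EV replicate 1 the change for dnFOS became 0.73, and without EV replicate 2 or dnCEBP replicate 2 that for dnCEBP became -0.07 or -0.14, so no direction is given for this gene.

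The counts of NCF1 are uncertain for a further reason, its near-identical pseudogenes NCF1B and NCF1C on the same chromosome. Of the 75-base windows (the read length) in the 1396-base principal transcript of NCF1, 75.6% also occurred unchanged in NCF1B or NCF1C, 60.7% in NCF1B and 54.8% in NCF1C. Over all annotated transcripts of NCF1 the shares were 36.1%, 31.2% and 18.0% of 4031 windows, and over all transcripts of the other 4 genes 0 windows were shared with another gene. Windows were sought in annotated transcripts only, so matches elsewhere in the genome were not counted. They were also taken singly, although the reads were paired. NCF1 and NCF1C aligned over 1394 bases with 8 mismatches and an identity of 99.4%, and differed in length by 2 bases near the start. The stretch around that gap is shown because it is the position at which a read could tell the coding gene from NCF1C by length (transcript bases 117 to 168 of NCF1 and 148 to 197 of NCF1C). Capitals mark the 2 bases of NCF1 with no counterpart, whose exact placement within the repeat is arbitrary.
NCF1: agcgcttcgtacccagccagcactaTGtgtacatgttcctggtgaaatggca
NCF1C: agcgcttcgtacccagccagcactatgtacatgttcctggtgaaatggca

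NCF1C, an unprocessed pseudogene (GRCh38 chr7:75156639-75172044, minus strand), followed NCF1 closely in the tables, with 12 and 2 counts with EV, 8 and 15 with dnCEBP, and 5 and 4 with dnFOS. NCF1B (GRCh38 chr7:73220624-73235945, plus strand) had 1 and 4 counts with EV, 4 and 4 with dnCEBP, and 0 and 0 with dnFOS. In each library NCF1 made up between 33.3% and 51.9% of the summed counts, which were 27 and 9 with EV, 21 and 36 with dnCEBP, and 9 and 6 with dnFOS. The summed feature was not called either, with log2 fold changes of 0.66 (SE 0.56, edgeR adjusted p = 0.693) for dnCEBP, -0.41 (SE 0.66, edgeR adjusted p = 0.735) for dnFOS, and -1.08 (SE 0.63, edgeR adjusted p = 0.282) between the peptides. How the counting treated reads that fit several places is not given in the sources used here, so the division between the 3 loci cannot be read from these values.

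**Figure D3:**
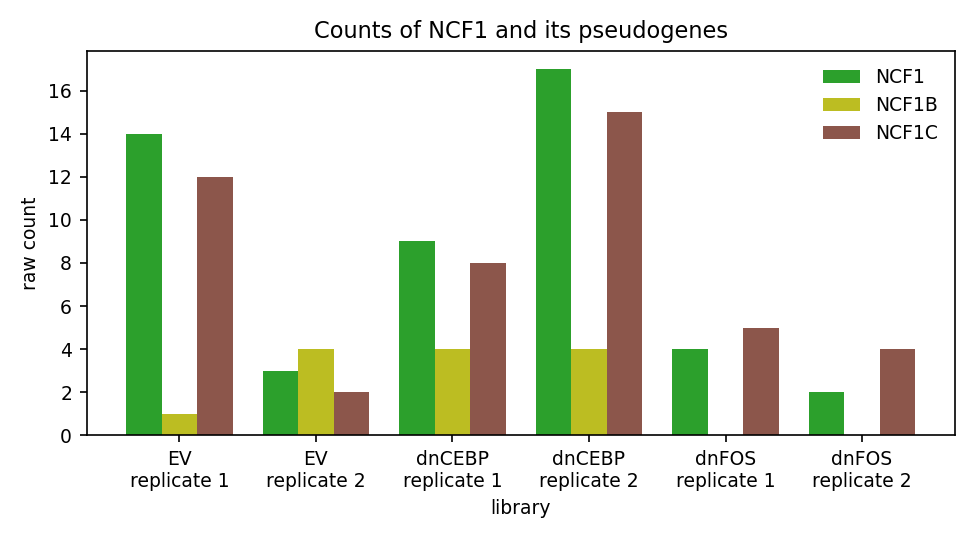
Raw counts of NCF1 and of its pseudogenes NCF1B and NCF1C in each of the 6 libraries, as bars from 0. NCF1 and NCF1C stay within 2 counts of each other in every library, and the dnFOS libraries, which are the shallowest, hold 4 and 2 counts of NCF1.

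NCF4 (ENSG00000100365, GRCh38 chr22:36860988-36878015, plus strand), the p40phox subunit that binds phosphatidylinositol 3-phosphate on phagosomes, fell with dnFOS. It had 4445 and 3894 counts with EV, 5468 and 3743 with dnCEBP, and 2124 and 1281 with dnFOS, corresponding to 186 and 178 CPM, 202 and 181 CPM, and 138 and 124 CPM. Both dnFOS values lay below all others, and the EV values and the lower dnCEBP value lay between 178 and 186 CPM. Group means (SD, n = 2 each) were 182 ± 5.81 CPM with EV, 192 ± 15.3 with dnCEBP and 131 ± 10.2 with dnFOS. Against EV the change with dnFOS was -0.475 on the log2 scale (SE 0.09, 95% interval -0.66 to -0.29, edgeR adjusted p = 0.000451), a level of 0.719 times that in EV, and with dnCEBP it was 0.07 (SE 0.09, 95% interval -0.11 to 0.25, edgeR adjusted p = 0.819). Tested directly, the log2 fold change of dnFOS against dnCEBP was -0.55 (SE 0.09, edgeR adjusted p = 6.14e-05). The call against EV held under all 16 alternatives, with values from -0.56 to -0.28, the smallest after removal of the trend with GC content and length. In bulk RNA, fewer cells of a type and less RNA per cell cannot be told apart. An antisense gene, NCF4-AS1, overlaps NCF4 and had 0 counts in all libraries.

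RAC2 (ENSG00000128340, GRCh38 chr22:37225261-37244448, minus strand), the blood-cell GTPase that joins the complex in its GTP form, fell in the same comparisons. Its counts were 5327 and 4535 with EV, 6242 and 4441 with dnCEBP, and 2615 and 1641 with dnFOS, or 224 and 208 CPM, 231 and 214 CPM, and 170 and 159 CPM. The dnFOS libraries were again below all others, and EV and dnCEBP overlapped. RAC2 in dnFOS was at 0.763 times the EV level, a log2 fold change of -0.39 (SE 0.09, 95% interval -0.56 to -0.21, edgeR adjusted p = 0.00233). Between the peptides RAC2 was also lower in dnFOS, at -0.44 (SE 0.09, edgeR adjusted p = 0.000629), and with dnCEBP against EV it was 0.05 (SE 0.08, 95% interval -0.13 to 0.22, edgeR adjusted p = 0.89). The call against EV was lost without EV replicate 1, at -0.34 with an edgeR adjusted p of 0.0701, and the change shrank to -0.22 (edgeR adjusted p = 0.0435) once the trend with GC content and length was removed.

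NCF4 and RAC2 lie on the same chromosome, 347246 bases apart and on opposite strands. Over the 6 libraries their log2 CPM values had a Pearson r of 0.996, a description of points that share libraries and scaling factors. RAC2 ranked 3 for NCF4 among 12317 genes with a mean of at least 1 CPM, of which 841 exceeded an r of 0.9 with NCF4 and 843 with RAC2. The ratio of RAC2 to NCF4 per kilobase of merged exons stayed between 0.793 and 0.89 in all libraries, and per kilobase of the principal transcript between 1.08 and 1.21. The genes most similar to NCF4 were USF1 (r = 0.996), TIE1 (r = 0.996) and RAC2 itself, and those most similar to RAC2 were MICAL1 (r = 0.999), SART3 (r = 0.997) and SH3BGRL3 (r = 0.997). A similar order of the libraries did not mean a similar size, as the log2 fold change with dnFOS against EV was -0.17 for SART3 and -0.71 for SH3BGRL3. For CYBA the leading genes were BST2, PELP1 and MRPL28 (r from 0.985 to 0.992), for CYBB TRGC1, TCEA1P2 and AGBL5 (r from 0.966 to 0.986), and for NCF1 FAM174A, AP2B1 and SFT2D1 (r from 0.971 to 0.989). Other pairs among the 5 oxidase genes had r from -0.308 to 0.506.

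Neighbours of the oxidase genes were counted in the same fit. Within 100 kb of the 5 genes 41 others were annotated and 19 were tested, of which 0 were called with dnCEBP, 1 with dnFOS and 0 between the peptides by edgeR, beside 1.07%, 15.0% and 14.7% of all tested genes. The called neighbour was DYNLT3, a dynein light chain gene 23296 bases from CYBB, which rose from a mean of 5.86 CPM in EV to 9.55 in dnFOS (log2 fold change 0.68, SE 0.22, edgeR adjusted p = 0.0307). The call of DYNLT3 was not followed under the alternatives. Near NCF4, IFT27 and the cytokine receptor gene CSF2RB had log2 fold changes of 0.17 and -0.23 with dnFOS, and near RAC2, CYTH4, IL2RB and C1QTNF6 had 0.21, -0.16 and 0.49, none of them called.

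Marker lists of mature cells were set beside the fall of NCF4 and RAC2. With dnFOS against EV, 7.76% of all tested genes were called lower and 15.0% in either direction. Of 14 monocyte and neutrophil markers 9 were tested with dnFOS against EV, and ITGAM (log2 fold change 0.91) and AIF1 (0.37) rose while LYZ (-0.44), FCN1 (-2.42), TYROBP (-0.45) and FCER1G (-0.88) fell. Their summed level was 463 to 493 CPM in EV, 465 to 476 in dnCEBP and 511 to 517 in dnFOS. The summed level of 9 myeloid blast markers was 1320 to 1370 CPM in EV, 1250 to 1270 in dnCEBP and 1190 to 1200 in dnFOS, and of the 8 tested with dnFOS against EV, PTPRC (-0.33), ANPEP (-0.58) and MPO (-0.56) fell, SPN (0.36) rose and 4 were not called. Erythroid and megakaryocyte markers went from 186 to 195 CPM in EV to 101 to 113 in dnFOS, nearly all of it ITGA2B (-0.83), with HBA2 at 0. B cell markers summed to 16.1 to 19.5 CPM in EV and 11.3 to 14.3 in dnFOS with MS4A1 and PAX5 at 0, T and NK cell markers to 149 to 155 and 117 to 133, and eosinophil markers to 14.3 to 14.8 and 4.82 to 6.86. Most of the T and NK sum was CD3D (means of 118.5 CPM in EV and 97.27 in dnFOS), with NCAM1 at 2.508 and 3.591, and the eosinophil sum moved with CLC (10.51 and 0.809), while SIGLEC8 was at 2.865 and 4.515. Their part in the values of NCF4 and RAC2 was not tested.

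Regulatory partners of the enzyme were compared in the same fit. RAC1 stood at 58.8 and 58.9 CPM with EV, 50.6 and 52.6 with dnCEBP, and 60.5 and 69.2 with dnFOS. It was higher in dnFOS than in dnCEBP by 0.33 (SE 0.10, edgeR adjusted p = 0.0209), the comparison in which RAC2 was lower, and it was not called against EV. The call of RAC1 between the peptides was lost without dnCEBP replicate 1, dnCEBP replicate 2 or dnFOS replicate 2. Per kilobase of merged exons RAC2 exceeded RAC1 by 4.68 and 4.33 times in EV, 5.62 and 5.02 times in dnCEBP, and 3.46 and 2.82 times in dnFOS, and the 3 groups of ratios did not overlap. Per kilobase of the principal transcript the ratios were lower, at 2.33 and 2.16, 2.8 and 2.5, and 1.72 and 1.4, in the same order of groups and again without overlap. With 2 libraries a group, an exact permutation test of this ratio could not reach 0.05, and none was run. CYBC1 was within 23.6 to 27.8 CPM in all libraries and was not called.

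Of the 19 assembly and signalling partners, all tested, 0 were called with dnCEBP and 2 were lower with dnFOS, beside 1.07% of all tested genes called with dnCEBP and 7.76% called lower with dnFOS. These were VAV1, an exchange factor that loads RAC proteins with GTP (-0.42, SE 0.09, edgeR adjusted p = 0.00131), and PRKCB, a protein kinase C that phosphorylates p47phox (-0.38, SE 0.10, edgeR adjusted p = 0.00972). Between the peptides both were again lower in dnFOS (-0.44 and -0.61), together with ARHGDIB, which holds RAC proteins in the cytosol (-0.48), and RAC1 was the 1 partner that was higher. In that comparison 7.84% of all tested genes were called lower and 14.7% in either direction. The median log2 fold change of the partners with dnFOS against EV was -0.12. The number of lower partners with dnFOS was 4, beside 1 higher, without dnFOS replicate 1, 1 without dnFOS replicate 2 and 1 without EV replicate 1, and PRKCB was not called in the last 2 of these (edgeR adjusted p = 0.0703 and 0.151). After removal of the GC and length trend VAV1 was at -0.27 and still called. With dnCEBP, 1 higher and 2 lower partners were called without dnCEBP replicate 1, and 1 lower without either dnFOS library.

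**Figure D4:**
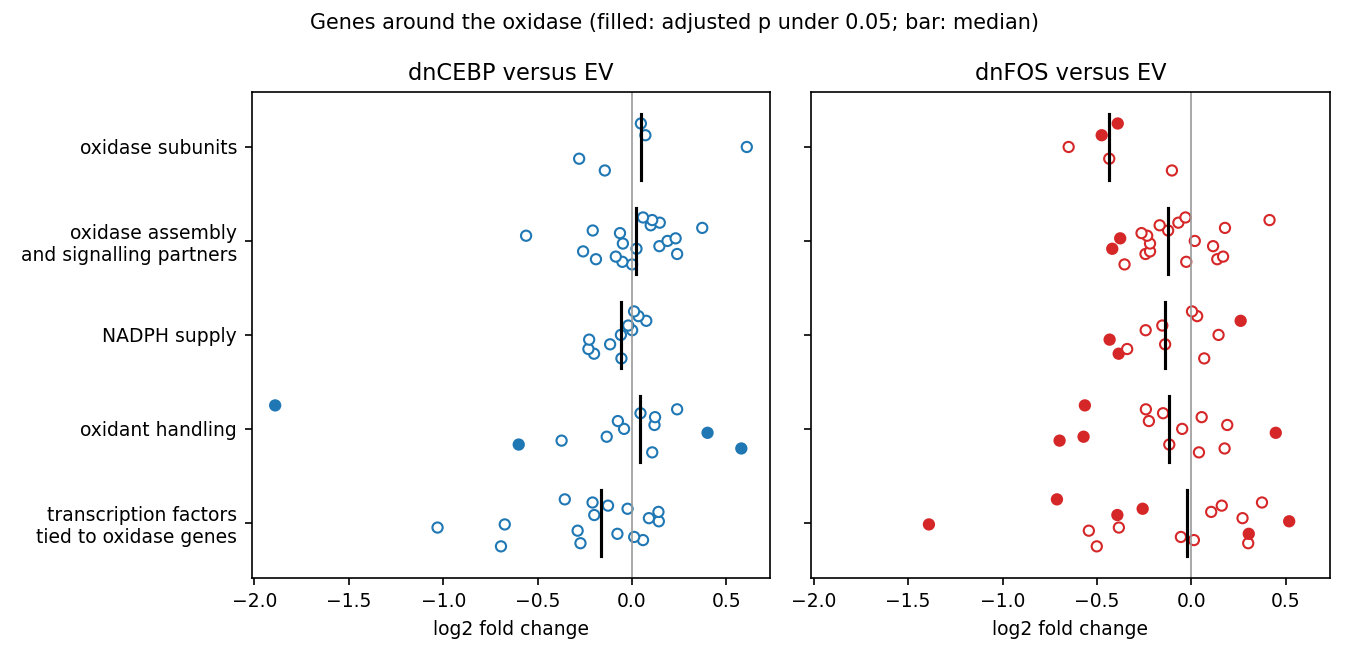
Log2 fold changes of the tested genes of each list with dnCEBP (left) and dnFOS (right) against EV; each circle is a gene, filled where the edgeR adjusted p is under 0.05, and black bars are list medians. The oxidase row holds 0 filled points on the left and 2 on the right (NCF4 and RAC2), and the far left point among the oxidant-handling genes is MPO at -1.89.

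Other members of the NADPH oxidase family were near absent. Of 10 such genes, 7 had 3 counts or fewer in every library, NOX1, DUOX1, DUOX2 and NOXO1 had 0 throughout, and NOX3 and NOXA1 passed the filter at up to 1.13 and 1.79 CPM and were not called. A count of 0 allows up to 0.29 CPM in the shallowest library. CYBB, low as it was, was thus the most abundant of the NOX catalytic genes listed, at 1.82 to 3.15 CPM beside 0.391 to 1.13 CPM for NOX3, values that are not corrected for length.

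Of 11 genes that supply NADPH, the enzyme's substrate, 0 were called with dnCEBP and 3 with dnFOS, where the shares of all tested genes were 1.07% and 15.0%. With dnFOS, PGD (-0.39, SE 0.08, edgeR adjusted p = 0.00218) and TKT (-0.43, SE 0.09, edgeR adjusted p = 0.0014) of the pentose phosphate pathway fell, and the malic enzyme gene ME2 rose (0.26, SE 0.09, edgeR adjusted p = 0.0406). ME2 was not called without either EV or either dnFOS library (edgeR adjusted p from 0.0536 to 0.243), with no filter on low counts, with DESeq2 or limma-voom, or after removal of the GC and length trend, where its change was 0.10.

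Among genes that handle the oxidants downstream of superoxide, 4 of 13 tested were called with dnCEBP and 4 with dnFOS, beside 1.07% and 15.0% of all tested genes. With dnCEBP, MPO, which turns hydrogen peroxide into hypochlorous acid (-1.89, SE 0.10, edgeR adjusted p = 5.03e-13), and catalase, CAT (-0.60, SE 0.08, edgeR adjusted p = 0.000152), fell, and the mitochondrial superoxide dismutase SOD2 (0.58, SE 0.08, edgeR adjusted p = 0.000163) and peroxiredoxin PRDX1 (0.40, SE 0.09, edgeR adjusted p = 0.0141) rose. PRDX1 was not called without dnCEBP replicate 2, EV replicate 1 or EV replicate 2 (edgeR adjusted p = 0.359, 0.0531 and 0.242). With dnFOS, MPO (-0.56) and the glutathione peroxidases GPX1 (-0.70) and GPX4 (-0.57) fell and PRDX1 (0.45) rose. GPX1 and GPX4 shrank to -0.41 and -0.31 after removal of the GC and length trend and were still called. Tested between the peptides, MPO was higher in dnFOS than in dnCEBP by 1.33 (SE 0.10, edgeR adjusted p = 2.1e-10) and CAT by 0.48 (SE 0.08, edgeR adjusted p = 0.000166), and SOD2 was lower (-0.40, SE 0.09, edgeR adjusted p = 0.00149).

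Transcription factors tied to the oxidase genes formed the last list, of 16 genes, all tested. With dnCEBP 0 were called and with dnFOS 6, beside the same shares of all tested genes, and with dnCEBP 1 lower was called without dnCEBP replicate 1, dnFOS replicate 1 or dnFOS replicate 2. With dnFOS, CEBPE, a late granulocytic C/EBP factor, fell most (-1.39, SE 0.33, edgeR adjusted p = 0.00396), from 4.41 and 3.89 CPM in EV to 1.76 and 1.35 in dnFOS. JUNB, an AP-1 subunit, fell by 0.71 on the log2 scale, and HOXA9 and CEBPA rose by 0.52 and 0.30. RELA (-0.39, edgeR adjusted p = 0.0473) and GATA2 (-0.26, edgeR adjusted p = 0.0493), named after their values were seen, were the other 2 that fell. The 6 calls became 3 without dnFOS replicate 1 and 3 without dnFOS replicate 2. JUNB was not called without dnFOS replicate 1 or after removal of the GC and length trend. CEBPA was not called without dnFOS replicate 2, EV replicate 1 or EV replicate 2 (edgeR adjusted p = 0.0595, 0.0966 and 0.14), and its change was 0.62 after removal of the trend. IRF8, a partner of PU.1, was between 3.28 and 5.12 CPM and was not called against EV (-0.27 and 0.30).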

How the data were processed

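RNA-seq count tables of 6 KO52 libraries were analysed, 2 per group. Per the labels, ribosomal RNA-depleted libraries were amplified with 15 PCR cycles and sequenced as paired reads of 75 bases, and the authors made the deposited counts, raw and not normalized, with Trimmomatic, HISAT2 and featureCounts (Subread) on hg38. Tool versions, the annotation release, the strand setting and the treatment of multi-mapping reads are not given in the sources used here. The 5 genes and all gene lists were chosen with earlier results of these data known. Symbols, coordinates and transcripts came from GENCODE release 29, which held 58394 of the 60612 IDs.

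Counts were filtered with edgeR's filterByExpr (minimum count 10), scaled by TMM and tested with the two-sided edgeR 4.0.16 quasi-likelihood test (robust, 1 fit of 6 libraries, 3 residual degrees of freedom, limma 3.58.1, R 4.3.3), with Benjamini-Hochberg adjustment over 15395 genes and calls at an adjusted p under 0.05. The procedure was tested on simulated data. The comparison named in the study's methods, limma-voom, and DESeq2 1.42.0, other filters and scalings, removal of a GC and length trend, a replicate block and leaving out each library were alternatives. Counts of list members without each library, and levels per kilobase of the principal transcript, were added after the data were seen. Named genes were the 5 members, of each list the called genes with the smallest p (at most 4 per comparison with EV), CYBC1, RAC1, NCF1B, NCF1C, SPI1, IRF8, CEBPA and CEBPE, called neighbours within 100 kb, and the 3 genes of highest r with each member (log2 CPM, prior count 2). Some genes of these lists are not reported here.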

Additional observations from a re-analysis of the deposited data

How the results depend on the processing

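With 2 libraries a group, and totals from 9862994 to 27663179 counts, precision was limited by the number of libraries for NCF4 and RAC2 and also by counts for CYBB and NCF1. Where a library was left out, its group kept 1 sample, assumed to vary like the others. Of the 5 oxidase genes, 0 were called with dnCEBP in the 16 alternatives, 2 were called between the peptides in all 16, and with dnFOS against EV 1 to 2 were called when leaving out a library, 1 of them being without EV replicate 1, where RAC2 was not (range of its value -0.455 to -0.336, edgeR adjusted p = 0.0701 there). The causes of these differences were not tested. Genes called with dnCEBP against EV numbered 165, but 255 with no filter, 257 with the 4 libraries compared, 488 with a replicate block, 269 after removing the GC and length trend and 33 to 314 when leaving out a library. Leaving out a library gave 972 to 2426 called genes with dnFOS against EV and 1182 to 2262 between the peptides. Whether replicate numbers pair the samples is not in the labels. Over all tested genes, deviations of replicate 1 from its group mean correlated between groups at 0.0174, 0.0281 and 0.0879. These low values cannot show that the replicates were unpaired, since a shared effect on some of the genes could be missed. The block gave 3172 and 3013 called genes with dnFOS against EV and between the peptides and the same number of oxidase genes. Scaling by library totals alone put the all-gene median with dnFOS against EV and against dnCEBP at a log2 value of 0.10 and 0.14 and the share of lower calls from 51.7% to 26.2% and from 53.4% to 25.4%, and NCF4 and RAC2 were still called lower. Directions that changed all belonged to log2 fold changes that were not called. When leaving out a library, with dnCEBP against EV these ranged from -0.441 to 0.0901 for CYBA, -0.139 to 1.98 for NCF1, -0.0136 to 0.15 for NCF4, -0.0112 to 0.101 for RAC2, -0.178 to 0.0603 for CYBC1, -0.0305 to 2.36 for NCF1C, -0.542 to 0.041 for IRF8 and -0.168 to 0.00756 for CEBPA. With dnFOS against EV they ranged from -0.28 to 0.0358 for CYBA, -1.33 to 0.73 for NCF1 and -0.522 to 1.87 for NCF1C, and between the peptides from -0.193 to 0.338 for CYBA and -0.379 to 0.0837 for CYBB. Removing the GC and length trend gave 0.132 for CYBA and 0.129 for CYBC1 with dnFOS, and 0.0541 for CYBC1 and 0.15 for CEBPA with dnCEBP. CYBC1 with dnFOS was 0.0712 with library totals.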
